A study of Mus musculus with 14 samples.

Results

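Collagen and laminin genes were followed through chromatin immunoprecipitation sequencing (ChIP-seq) of mouse embryonic stem cells before and after knockdown of Smarcb1, a core subunit of the BAF chromatin remodelling complex. They were taken as the protein-coding genes of GENCODE M21 (GRCm38, mm10) whose symbol starts with Col, a number, the letter a and a number, or with Lama, Lamb or Lamc and a number. This rule held 56 of 21938 protein-coding genes, namely 44 collagen chain genes, 11 laminin chain genes and Col4a3bp, a ceramide transfer protein whose symbol merely begins like that of a collagen. The cells were 81K1, a line grown from the chosen clone K1 of OG2 embryonic stem cells, which carries a cassette for an shRNA against Smarcb1 in the Rosa26 locus under a doxycycline-dependent promoter. Control cells carried the same cassette and received no doxycycline, whereas kd cells received 1 µg/ml doxycycline for 72 h. Both were kept in serum with LIF on gelatine. The antibodies were directed against H3K4me3, H3K27ac, H3K27me3, Ezh2 and Smarca4, with 1 library for each antibody and condition, so that no spread between replicates could be given and no test was made. A difference between control and kd is thus a difference between 2 libraries, and the region lists do not hold the depth of either.

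Collagens are secreted triple helices. Fibrillar collagens give tensile strength to skin, bone and cartilage, whereas collagen IV forms the sheet-like network of basement membranes, the thin matrix on which epithelia rest. Laminins are cross-shaped trimers of an alpha, a beta and a gamma chain that nucleate basement membranes, and laminin chains are among the first matrix proteins of the early embryo. Most other collagens belong to differentiated tissues. In stem cells, silent developmental genes commonly carry H3K27me3, which the Ezh2 subunit of the Polycomb complex PRC2 deposits. H3K4me3 and H3K27ac mark the promoters of active or poised genes, and a promoter with both H3K4me3 and H3K27me3 is called bivalent. Smarca4 is an ATPase of the BAF complex.

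The promoter was taken as 1 kb either side of the annotated gene start, and the gene body as the rest of the gene down to its end. A gene counted as called when a region of the authors' list reached into that window by at least 1 bp. The strength of a region is given as the authors' score (Smarca4, Ezh2) or p-value (p, given by SICER to the region against its background, not a test of control against kd; histone marks) and as its percentile among all regions of its own list. Percentiles were used because scores and p-values are not scaled between libraries.

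Most collagen and laminin promoters carried H3K27me3 in both conditions, few carried H3K27ac, and H3K4me3 was called at more of them in kd. H3K27me3 lay at 40 of 56 promoters in control and at 39 in kd, against 34.9% and 29.2% of all protein-coding promoters. H3K4me3 lay at 22 promoters in control and at 33 in kd, against 56.6% and 60.4% of all. H3K27ac lay at 2 promoters in control and at 6 in kd, against 16.0% and 30.9% of all. Ezh2 peaks were found at 13 and 17 promoters, against 7.13% and 12.6%. Smarca4 peaks were found at 38 and 39 promoters, or 67.9% and 69.6%, close to the 62.5% and 63.5% of all promoters.

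**Figure D1:**
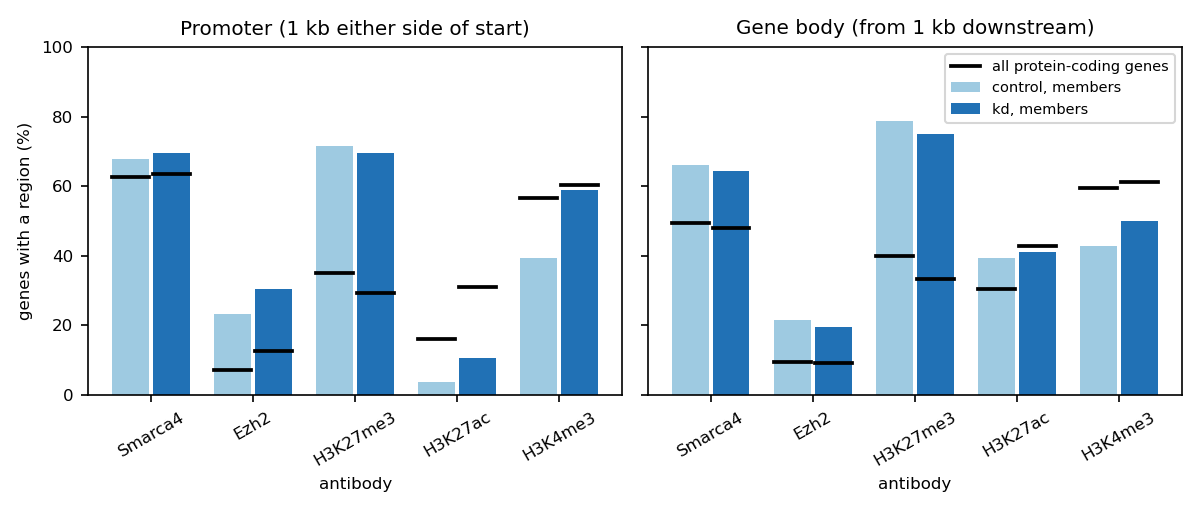
Share of genes (%, vertical axis) with at least 1 region of each antibody (horizontal axis) in the promoter (left) and in the gene body (right), for the 56 collagen and laminin genes in control (light bars) and kd (dark bars). Black lines give the share of all protein-coding genes in the same library; H3K27me3 bars lie above them and H3K4me3 and promoter H3K27ac bars below them.

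Combined into promoter states, bivalent promoters were the largest group in kd. In control, 19 promoters were bivalent, against 21.2% of all promoters, and 21 carried H3K27me3 without H3K4me3, against 13.7%. Lamc1 and Col4a3bp alone carried H3K4me3 with H3K27ac and no H3K27me3, a state of 13.4% of all promoters. Col18a1 carried H3K4me3 alone (22.0% of all), and 13 genes had none of the 3 marks (28.6% of all). In kd, 28 promoters were bivalent (21.6% of all), 11 carried H3K27me3 without H3K4me3 (7.60% of all), and 12 had none of the marks (30.5% of all). Lamc1, Lama5, Lamb2, Col18a1 and Col4a3bp carried H3K4me3 with H3K27ac in kd (25.1% of all), and no promoter H3K4me3 alone (13.7% of all). Of the 21 promoters with H3K27me3 without H3K4me3 in control, 11 were bivalent in kd, 9 stayed in that state and Col6a1 had no mark. Among all protein-coding promoters of that control state, 22.9% were bivalent in kd. With lists cut to equal length, 22 promoters were bivalent in kd (20.4% of all), 17 carried H3K27me3 without H3K4me3 (8.73% of all), and 6 of 21 went from H3K27me3 without H3K4me3 to bivalent (17.7% of all such promoters). With the stricter threshold, 12 were bivalent in control (17.1% of all) and 21 in kd (18.0% of all).

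Smarca4 was present in both conditions at each of the 11 promoters that were bivalent in kd alone out of this state, against 86.8% of all such promoters. At the 9 promoters that kept H3K27me3 without H3K4me3, it was present in both conditions at 2, Col5a3 and Col11a2, against 27.9% of all such promoters. Both shares of the collagen and laminin genes therefore ran in the same order as in the genome as a whole.

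**Figure D2:**
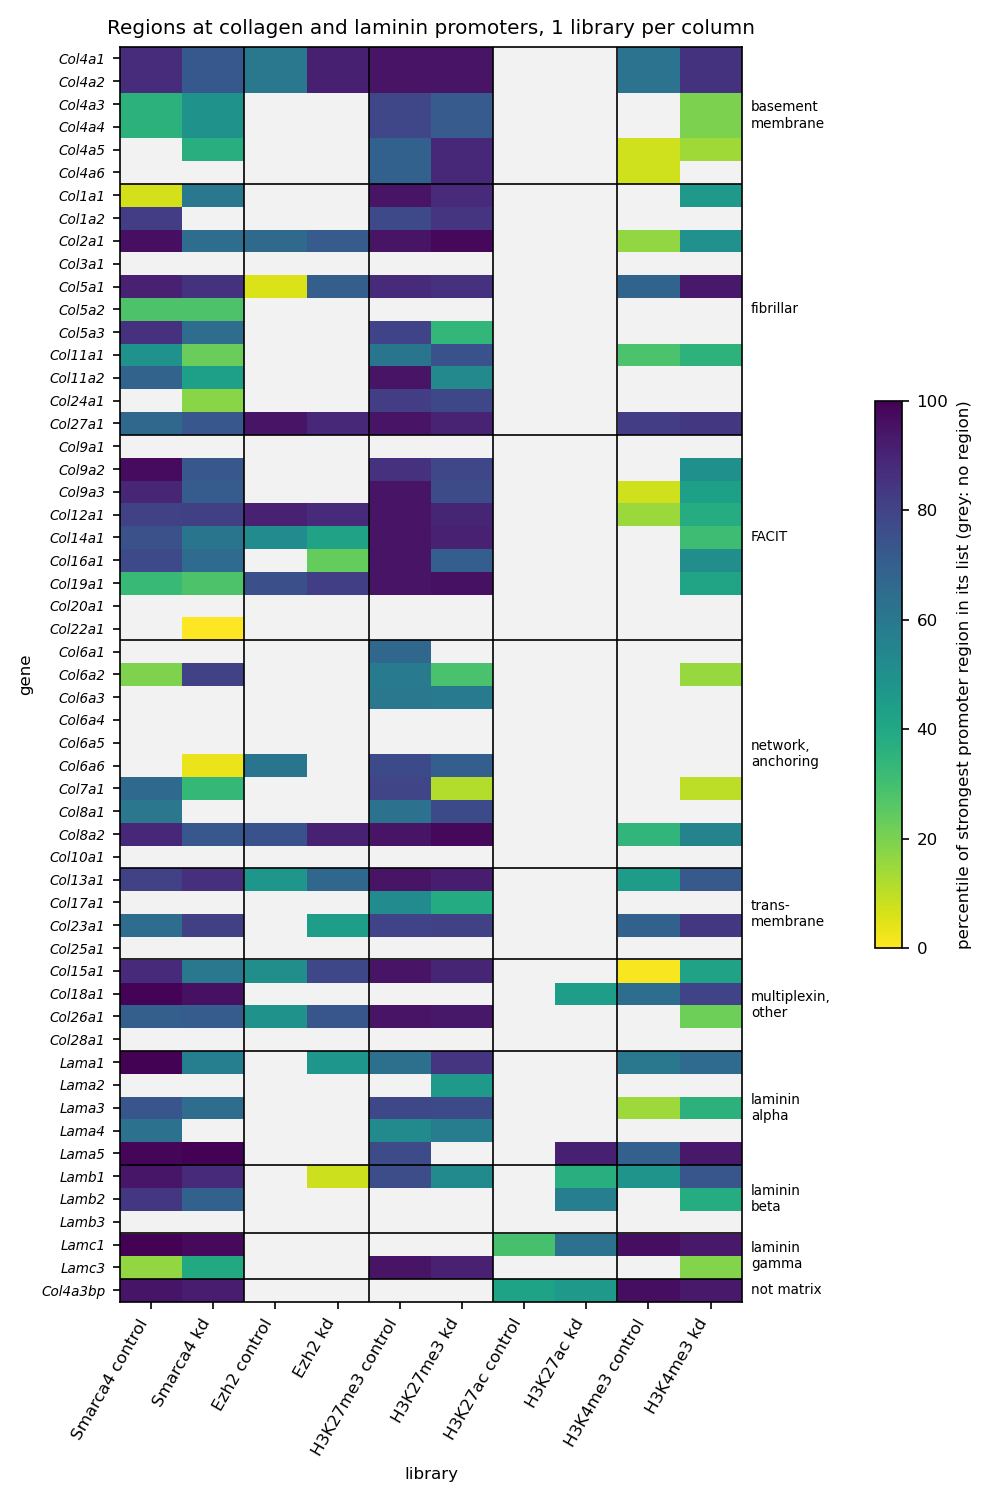
Strongest region at the promoters of the collagen and laminin genes (rows, grouped by protein class, with 1 gene not shown) in each of the 10 libraries (columns). Colour gives the percentile of that region in its own list, from 0 (yellow) to 100 (dark purple), and grey cells hold no region. The 2 H3K27ac columns are almost empty, and the H3K4me3 kd column holds more cells than the H3K4me3 control column.

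RefSeq promoter sequences (GRCm38.p6, 250 bases before to 50 after the start) were matched to 36 of the 56 genes. The ratio of observed to expected CpG dinucleotides had a median of 0.46 in these genes, with a range from 0.00 to 0.90, and of 0.65 in all 14278 protein-coding genes with a sequence. It was 0.66 in the 12 bivalent promoters of control (all genes: 0.76), 0.47 in the 15 with H3K27me3 without H3K4me3 (all genes: 0.33) and 0.14 in the 8 without marks (all genes: 0.17). Within the second group, the 6 promoters that were bivalent in kd had a median of 0.48 and a range from 0.25 to 0.67. The 8 that kept the state had a median of 0.45 and a range from 0.14 to 0.66, so both overlapped. The letters TATAAA, on either strand, stood in 5 of the 36 promoters, Col3a1, Col10a1, Col13a1, Col11a2 and Col17a1 (13.9%, all promoters: 11.2%). CCAAT stood in 12 (33.3%, all: 38.9%), and GGGCGG in 22 (61.1%, all: 51.8%).

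**Figure D3:**
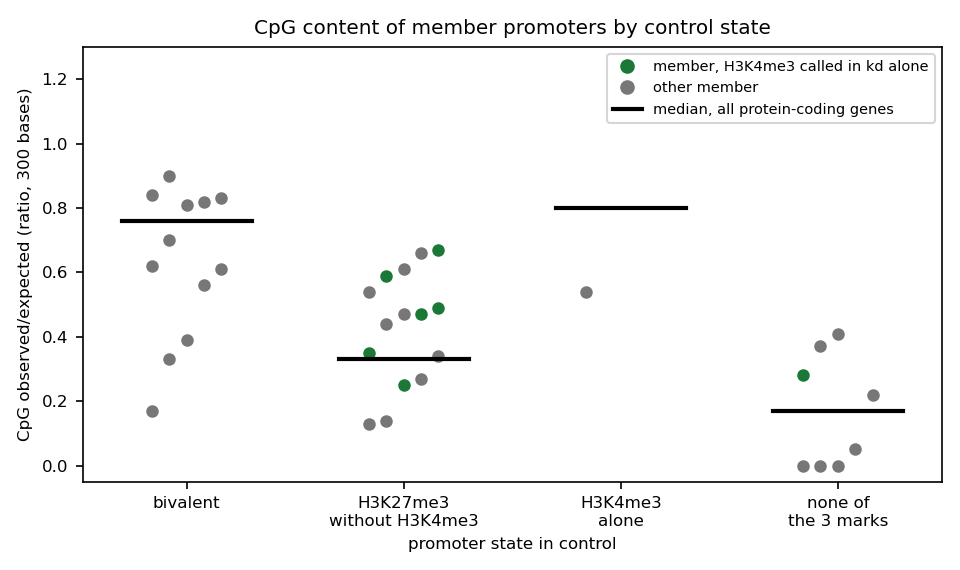
Ratio of observed to expected CpG (vertical axis, 300 bases around the start) of the 36 genes with a RefSeq promoter sequence, by promoter state in control (horizontal axis). Green points are genes with H3K4me3 called in kd alone, grey points all others, and black lines the medians of all protein-coding genes. In the state H3K27me3 without H3K4me3, green points (0.25 to 0.67) overlap grey points (0.13 to 0.66). Lamb2, at 0.28, is the only green point of the state without marks.

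The stretches upstream of 6 starts are shown because these promoters span the range of marks, from a laminin with H3K27ac in kd to a collagen without any region. Each is read 5′ to 3′ on the strand of its gene from GRCm38.p6, ends before the first annotated exon, and has its CpG dinucleotides in capitals. Lama5 is from chr2:180225860-180226109 (minus strand, 19 CpG), Lamb1 from chr12:31265043-31265233 (plus, 10 CpG), Lamb2 from chr9:108479612-108479735 (plus, 1 CpG) and Col16a1 from chr4:130047590-130047661 (plus, 6 CpG). Col4a4 is from chr1:82586850-82586920 (minus, 2 CpG), which is the whole gap between the starts of Col4a4 and Col4a3. Col3a1 is from chr1:45311288-45311537 (plus, 0 CpG).
Lama5: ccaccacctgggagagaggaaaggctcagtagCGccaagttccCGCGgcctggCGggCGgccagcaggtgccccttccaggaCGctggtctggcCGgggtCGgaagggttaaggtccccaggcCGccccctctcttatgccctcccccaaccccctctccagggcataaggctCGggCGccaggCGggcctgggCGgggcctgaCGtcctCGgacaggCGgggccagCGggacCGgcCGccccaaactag
Lamb1: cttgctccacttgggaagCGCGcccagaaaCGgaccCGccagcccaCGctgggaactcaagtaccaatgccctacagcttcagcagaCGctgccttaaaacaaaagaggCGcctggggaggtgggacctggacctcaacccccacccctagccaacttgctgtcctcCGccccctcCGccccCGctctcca
Lamb2: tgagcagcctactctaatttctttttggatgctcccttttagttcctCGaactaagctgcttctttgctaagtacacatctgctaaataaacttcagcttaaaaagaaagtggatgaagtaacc
Col16a1: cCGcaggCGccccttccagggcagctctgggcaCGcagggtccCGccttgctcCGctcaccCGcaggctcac
Col4a4: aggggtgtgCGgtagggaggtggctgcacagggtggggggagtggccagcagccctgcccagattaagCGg
Col3a1: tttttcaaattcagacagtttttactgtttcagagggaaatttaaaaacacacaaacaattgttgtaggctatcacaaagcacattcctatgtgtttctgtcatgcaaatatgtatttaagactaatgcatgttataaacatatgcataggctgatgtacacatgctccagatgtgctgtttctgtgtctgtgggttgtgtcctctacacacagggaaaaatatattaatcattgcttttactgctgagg

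Basement membrane collagens were covered by H3K27me3 in all 6 cases in both conditions (all promoters: 26.8%). Their starts lie in 3 head-to-head pairs that share regions. Col4a1 and Col4a2 start 21 bp apart on chromosome 8, with their first bases overlapping, Col4a4 and Col4a3 start 72 bp apart on chromosome 1, and Col4a6 and Col4a5 start 1309 bp apart on the X chromosome. A call at one gene of a pair is therefore mostly the same region as at its partner, and the pairs are not independent.

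Col4a1 and Col4a2, which encode the 2 chains of the common collagen IV network, had a bivalent promoter in both conditions. H3K27me3 covered chr8:11306401-11321800 in control (15.4 kb, p listed as 0) and 13.2 kb in kd (SICER p of 2.27e-282). The H3K4me3 region had a SICER p of 1.57e-88 in control and a SICER p of 5.54e-295 in kd, percentiles 61.9 and 85.2. The Ezh2 peak had a score of 85 over 988 bp in control and of 558 over 2163 bp in kd, percentiles 60 and 91.2. Smarca4 ran the other way, with a score of 180 over 2190 bp in control and of 110 over 822 bp in kd. Chromosome 8 stood apart in the H3K27me3 lists, with 1.26 regions in kd for each region in control against a median of 0.795 over the autosomes. In the Ezh2 lists it held 0.563 peaks in kd for each peak in control, against a median of 0.817. The part of the chromosome in these values was not tested.

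Col4a3 and Col4a4, chains of the collagen IV of kidney and lens basement membranes, carried H3K27me3 in both conditions and H3K4me3 in kd alone. The shared H3K4me3 region, chr1:82586401-82587600, had a SICER p of 4.40e-18 and the percentile 19.9, and no H3K4me3 region of the control list lay within 115080 bp of the Col4a3 window. Smarca4 was called over the gap in both conditions, with scores of 51 and 61. At Col4a5 and Col4a6, the H3K27me3 region was 4.40 kb wide in control (SICER p of 6.42e-64) and 9.60 kb in kd (SICER p of 1.67e-155). H3K4me3 was called at the Col4a5 start in both conditions (SICER p of 5.28e-13 and 2.32e-15). At Col4a6 it was called in control alone, against 0.779% of all promoters. There, 2 weak control regions covered 876 bp of the window, the stronger of them being that of Col4a5 at chrX:141475001-141476000 (percentile 7.4), and the nearest kd region began 125 bp outside the window. Col4a5 was also among the promoters with Smarca4 in kd alone (score 49). The X chromosome held 1.37 Smarca4 peaks in kd for each peak in control, against a median of 0.901 over the autosomes.

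Fibrillar collagens had H3K27me3 at 9 of 11 promoters in both conditions (all promoters: 26.8%). None of them had H3K27ac (all: 16.0% in control and 30.9% in kd). Col1a1, a chain of collagen I of bone and skin, carried H3K27me3 over 26.2 kb in control (p listed as 0) and over 18.4 kb in kd (SICER p of 9.28e-145). H3K4me3 was called at its start in kd alone, at chr11:94936201-94938600 (SICER p of 1.60e-51, percentile 46.0). Its Smarca4 peak had a score of 27 in control and of 76 in kd, and these 2 peaks did not overlap. Col1a2, the partner chain, had no H3K4me3 in either library, H3K27me3 of similar rank in both (percentiles 78.1 and 84.5), and Smarca4 in control alone. The 2 collagen I genes thus differed in both Smarca4 and H3K4me3.

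Col2a1, the collagen of cartilage, was bivalent in both conditions under 23.4 and 23.0 kb of H3K27me3. Its H3K4me3 region had the percentile 16.4 in control and 49.6 in kd, its Ezh2 peak a score of 95 and 253, and its Smarca4 peak a score of 303 and 85. Col3a1, which accompanies collagen I in soft tissues, had no region of any antibody in promoter or body. Col9a1 and Col20a1, of the fibril-associated (FACIT) collagens, and Col10a1, the network collagen of hypertrophic cartilage, were without regions as well. These 4 genes stand against 16.7% of all protein-coding genes without any region, and 5 others (Lamb3, Col25a1, Col28a1, Col6a5 and Col6a4) had regions in the body alone.

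Laminin chains, 11 of the 56 genes, held 3 of the 4 promoters with H3K27ac in kd alone (all promoters: 16.8%). Lamc1 carried the mark in both conditions (all: 14.1%). Lamc1 encodes the gamma chain of most laminin trimers. Its promoter carried H3K4me3 over 10.4 kb in control and 8.0 kb in kd, both with p listed as 0, and no H3K27me3 or Ezh2. H3K27ac had a SICER p of 1.50e-10 in control and a SICER p of 5.40e-17 in kd, percentiles 29.2 and 62.2. Its Smarca4 peaks were among the strongest in their lists, with scores of 509 and 370.

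Lama5, the alpha chain of the laminins of most epithelial basement membranes, was the 1 of 19 bivalent promoters of control (5.26%) that carried H3K4me3 with H3K27ac and no H3K27me3 in kd, against 8.42% of all bivalent promoters. In control, H3K27me3 covered chr2:180219201-180236400 (17.2 kb, SICER p of 7.16e-100, percentile 76.6), and the nearest kd region lay 100342 bp from the promoter window. H3K27ac was called in kd alone at chr2:180224001-180227000 (SICER p of 3.62e-42, percentile 91.3), with the nearest control region 8942 bp away. H3K4me3 was called in both, with a SICER p of 3.96e-116 in control and p listed as 0 in kd. Smarca4 had scores of 427 and 527, and no Ezh2 peak was called in either library.

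Lamb1, the beta chain that pairs with Lamc1 in early embryonic laminin, had H3K4me3 and H3K27me3 in both conditions. Its H3K27me3 region was 9.60 kb wide in control (SICER p of 4.14e-98). In kd, 2 narrower regions left a gap around the start, the stronger of them 3.60 kb wide (SICER p of 6.42e-26). H3K27ac in kd alone lay just downstream of the start, at chr12:31265401-31266800 (SICER p of 8.90e-11, percentile 36.8). A weak Ezh2 peak in kd alone overlapped it (score 37, percentile 7.8). Lamb2, a beta chain of muscle, synapse and kidney, had no histone mark at its promoter in control. In kd it carried H3K4me3 (chr9:108477201-108481400, SICER p of 4.25e-35) and an H3K27ac region that ended at -336 bp from the start (chr9:108474401-108479400, SICER p of 2.78e-15).

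Lama1, the alpha chain of the first embryonic laminin, had a lower Smarca4 score and more H3K27me3 in kd. Its promoter had the highest Smarca4 score of the 56 genes in control, 554 (percentile 99.6), and a score of 73 in kd (percentile 56.8). H3K27me3 was 2.0 kb wide in control (SICER p of 1.38e-47) and 12.8 kb in kd (SICER p of 1.77e-115). An Ezh2 peak was called in kd alone at chr17:67697056-67697739 (score 114), with no control peak within 341714 bp of the window. H3K4me3 stayed called, over 2.80 kb in control (SICER p of 2.75e-81) and 1.00 kb in kd (SICER p of 4.66e-120). Lama5 and Lama1 therefore differed in the direction of H3K27me3 between the libraries, although both kept H3K4me3.

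**Figure D4:**
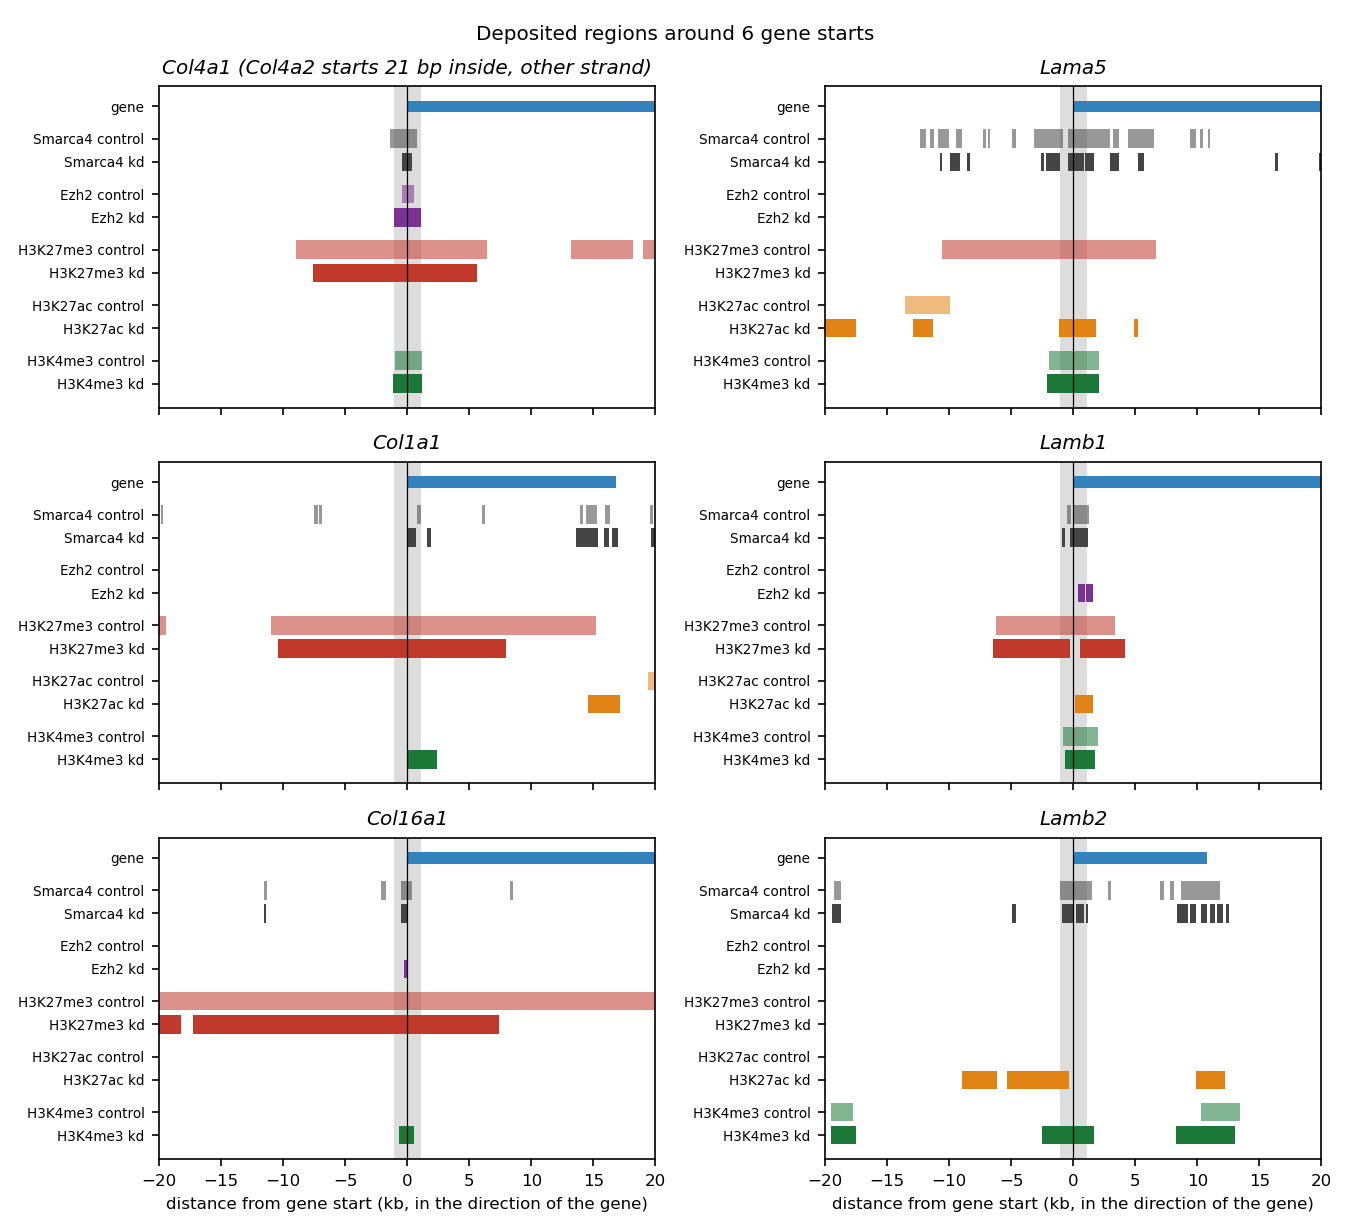
Deposited regions (bars) within 20 kb of the starts of Col4a1, Col1a1, Col16a1, Lama5, Lamb1 and Lamb2, by antibody and condition (rows; control paler). The horizontal axis is the distance from the start in kb, along the gene; the grey band is the promoter window and the blue bar the gene. H3K4me3 is drawn at the starts of Col1a1, Col16a1 and Lamb2 in kd alone, and H3K27me3 at Lama5 in control alone.

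The H3K4me3 regions that were called in kd alone lay at 12 of 56 promoters, against 4.59% of all protein-coding promoters. They were Col16a1, Col9a2, Col1a1, Col19a1, Lamb2, Col14a1, Col26a1, Col4a3, Col4a4, Lamc3, Col6a2 and Col7a1, where the last 2 are chains of beaded microfibrils and of the anchoring fibrils of skin. FACIT collagens, which decorate fibrils and make up 9 of the 56 genes, held 4 of the 12. The highest ranks were those of Col16a1 (chr4:130047201-130048400, SICER p of 6.18e-64, percentile 50.5), Col9a2 (chr4:121039401-121040400, SICER p of 1.26e-61, percentile 49.7) and Col1a1. Col19a1 (chr1:24586401-24587600, SICER p of 1.14e-41, percentile 41.6) and Lamb2 (percentile 37.9) followed. The 12 promoters rested on 11 distinct regions, which were thus in the middle or lower part of the kd list, down to the percentile 9.9 at Col7a1. The nearest control region lay between 9265 and 115152 bp from the window. Of these 12 promoters, 11 carried H3K27me3 (all promoters: 26.8%) and all 12 Smarca4 (59.8%) in both conditions, and 1 carried H3K27ac in kd (30.9%). Shares among all promoters with H3K4me3 in kd alone were not computed. Among all promoters that went from H3K27me3 without H3K4me3 to bivalent, 86.8% had Smarca4 in both. These counts can therefore not be read as particular to these genes. The kd list of H3K4me3 held 33506 regions and the control list 26130. With lists cut to equal length, H3K4me3 was called in kd alone at 7 promoters, against 3.23% of all. With a -log10 p of at least 20, 11 promoters were in kd alone, against 5.77% of all, and 6 of them were among the 12.

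Where H3K4me3 was called in both conditions, the percentile was higher in kd at 19 of 21 promoters, against 61.5% of all promoters called in both, and the median percentile was 48.4 in control and 72.1 in kd (all genes: 72.9 and 77.2). The kd list is longer, and with lists of equal length the percentile was higher at 14 of 20 promoters, against 45.2% of all, with medians of 54.1 and 64.8. Col15a1, with percentiles of 0.9 and 42.5, differed most. Lamc1 and Col4a3bp, with p listed as 0 in both libraries, were the exceptions, and ties at 0 set their percentiles. Besides these, Col27a1, a fibrillar collagen of cartilage, had the strongest control region, with a SICER p of 1.17e-188 in control and a SICER p of 3.69e-276 in kd.

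H3K27ac in kd alone lay at 4 promoters, Lama5, Lamb2, Col18a1 and Lamb1, against 16.8% of all promoters, and in control alone at 0, against 1.83% of all. Col18a1, the parent of endostatin, carried it over chr10:77164201-77168200 (SICER p of 5.10e-12, percentile 43.9). Col4a3bp was called in both conditions (SICER p of 3.07e-13 and 1.59e-12). The 2 promoters called in both, Lamc1 and Col4a3bp, ranked higher in kd, as did 80.2% of all such promoters, whereas 1 of the 2 did with lists of equal length (all: 75.2%). No collagen promoter other than Col18a1 carried H3K27ac in either library.

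H3K27me3 in control alone was called at Lama5 and Col6a1, against 8.15% of all promoters, and in kd alone at Lama2, against 2.39%. With a -log10 p of at least 20, control alone held 6 promoters, against 8.02% of all. The Col6a1 region, chr10:76726801-76734000 (SICER p of 6.15e-56, percentile 66.4), ended at -633 bp from the start. The Lama2 region, chr10:27615401-27619400 (SICER p of 3.16e-22, percentile 46.1), began 358 bp downstream of it, and a control region lay 1358 bp outside the window. Lama2 is the laminin alpha chain of muscle, and Col6a1 a chain of collagen VI. In control, the region at 16 of the 40 promoters had p listed as 0, 15 of 37 distinct regions, among them those of Col11a2, Col12a1 and Col13a1, the first by name. In kd, the region at 2 of the 39 promoters did, Col8a2 and Col2a1. Over the whole lists, p was listed as 0 for 2408 of 22909 control regions and for 797 of 18320 kd regions, so fewer such values in kd are not particular to these genes. Where both libraries held a region, the percentile was higher in kd at 14 of 38 promoters, against 43.5% of all, with median percentiles of 81.0 and 82.3. The 16 promoters with p listed as 0 in control share the percentile 94.7, and Col8a2 and Col2a1, with p listed as 0 in both libraries, are among the 14 through the value of this tie alone. With lists of equal length, 19 of 38 were higher in kd, against 55.9% of all, so that no direction can be read from these ranks. The low end was Col7a1, with 79.2 in control and 11.7 in kd.

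Ezh2 peaks in kd alone lay at 5 promoters, against 5.78% of all promoters, and in control alone at Col6a6, against 0.283%. Among the former were Lama1, Col23a1 (chr11:51289834-51290455, score 105), Col16a1 (chr4:130047577-130047832, score 60) and Lamb1 (chr12:31265643-31266145, score 37). The peak at Col6a6 was chr9:105827495-105827760 (score 87, percentile 61.1). The strongest peaks in control were at Col27a1 (score 287), Col12a1 (221) and Col19a1 (117), and had scores of 490, 464 and 361 in kd. Of the 12 promoters called in both, 9 ranked higher in kd, against 67.2% of all, with median percentiles of 60 and 79.9. With lists of equal length this was 9 of 11, against 72.1% of all. The Ezh2 lists differed in make-up, since 45.9% of control peaks and 3.24% of kd peaks lay mostly in repeat-masked sequence, and the part of this in the ranks was not tested.

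Smarca4 was called in control alone at 3 promoters, against 2.69% of all, and in kd alone at 4, against 3.69%. The former were Col1a2 (chr6:4505182-4505873, score 144, percentile 81.9), Lama4 (chr10:38965383-38966200, score 84) and Col8a1 (chr16:57754620-57754973, score 79), a vessel laminin and an endothelial and corneal collagen in the latter cases. Each kept H3K27me3 without H3K4me3 in both conditions. The latter were Col4a5 (chrX:141475569-141475812, score 49), Col24a1 (chr3:145292999-145293443, score 35), Col6a6 (chr9:105827934-105828129, score 21) and Col22a1 (chr15:72033610-72033819, score 13). They were weak, with percentiles between 0.1 and 36.9, and 0 of the 4 were in kd alone under the stricter threshold (score of at least 50). At the 35 promoters called in both, Smarca4 ranked higher in kd at 11, against 47.2% of all, with median percentiles of 80.3 and 69.1 (all genes: 86.1 and 84.1). With lists of equal length this was 12 of 34, against 50.5% of all. Behind Lama1 and Lamc1, Col18a1 had the third highest score in control (455), and 314 in kd. The clearest cases of higher rank in kd were Col6a2 (percentiles 19.3 and 80.5) and Col1a1 (6.5 and 59.8).

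In the gene bodies, the length of these genes has to be kept in mind. Their median length was 114 kb, with a range from 7.11 to 640 kb, against 17.4 kb in all protein-coding genes, so that more regions could fall into them. Smarca4 was called in 37 bodies in control and 36 in kd (all genes: 49.4% and 48.0%), Ezh2 in 12 and 11 (9.36% and 9.09%) and H3K27me3 in 44 and 42 (39.9% and 33.3%). H3K27ac was called in 22 and 23 (30.4% and 42.7%) and H3K4me3 in 24 and 28 (59.5% and 61.1%). Several of these counts depended on how regions were assigned. Among regions that do not reach the promoter, H3K27me3 was found in 27 and 22 bodies (all genes: 19.1% and 14.3%), H3K4me3 in 9 and 13 (17.8% and 22.7%) and Ezh2 in 12 and 5 (7.75% and 5.25%). Among regions under 50% repeat-masked, H3K27ac was found in 8 and 10 bodies (19.1% and 28.8%) and Ezh2 in 6 and 11 (5.74% and 8.98%). By covered bases, Smarca4 peaks covered 1.04% of the bodies in control and 0.773% in kd (all genes: 2.24% and 1.5%). H3K27ac covered 1.79% and 2.12% (all genes: 4.23% and 4.78%), and H3K4me3 0.826% and 1.25% (all genes: 3.54% and 4.0%). Ezh2 covered 0.0717% and 0.0997% (all genes: 0.152% and 0.225%), although it was called in a larger share of these bodies than of all. Per base, each of these covered less of the bodies of collagen and laminin genes than of all gene bodies in each library. Regions that reach in from a promoter fill less of a long body, so these shares still depend on length.

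H3K27me3 covered 9.72% of the body bases of these genes in control and 4.99% in kd, against 8.61% and 6.02% in all gene bodies. The median share per gene was 4.19% in control and 3.81% in kd, so that the difference in the sum lay mainly in a few genes. Over the gene region from 1 kb upstream of the start to the end, it covered less in kd in 30 genes (65.2% of 46 with any, all genes: 61.6%), more in 14 (30.4%, all: 27.1%) and the same in 2. The direction was thus close to that of all genes. Col13a1, a transmembrane collagen, had 79.1 kb covered in control and 19.7 kb in kd. Col26a1 had 62.4 and 24.8 kb, Lamc3 44.6 and 9.25 kb, Col4a2 37.4 and 8.60 kb, and Col5a3 34.8 and 5.07 kb. Among the genes with more covered bases in kd were Col4a6 (2.08 and 12.9 kb), Col4a4 (3.65 and 13.2 kb), Lama2 (1.00 and 9.60 kb) and Lama1 (2.0 and 10.5 kb). At the promoters, H3K27me3 covered 68.9% of the bases in control and 65.0% in kd (all genes: 30.3% and 24.3%). The promoter windows sum to 112 kb and the bodies to 7063 kb, and the median promoter was covered to 100% in both libraries. These shares can therefore not tell whether the difference between the libraries lay in promoters or bodies. At Col16a1, a single control region of 168 kb (chr4:129938201-130106200) ran over the whole gene and the starts of 2 other protein-coding genes, Adgrb2 and Pef1, whereas the promoter region in kd was 24.6 kb wide and 4 kd regions covered 65.1% of the gene body.

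**Figure D5:**
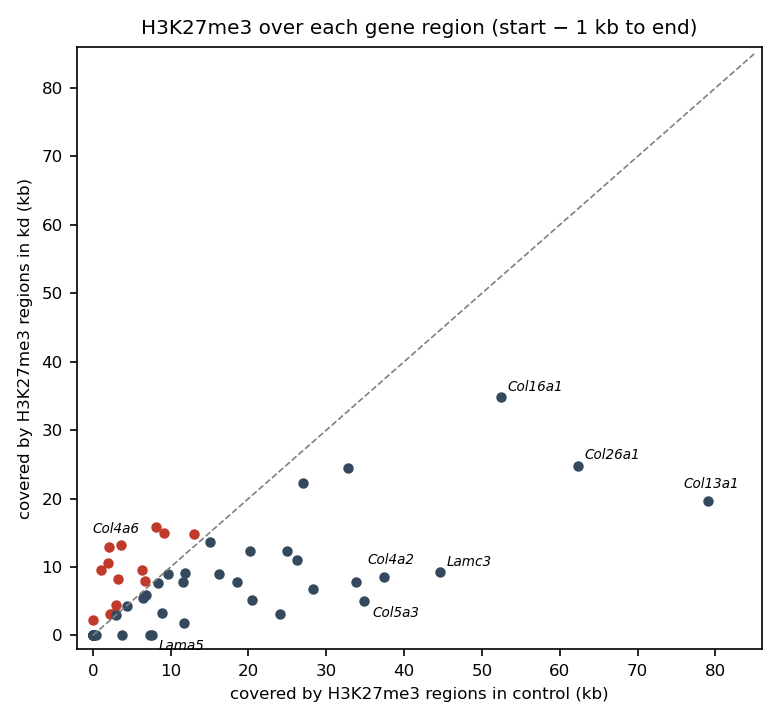
Length covered by H3K27me3 regions (kb) from 1 kb upstream of the start to the end of each of the 56 genes, in control (horizontal axis) and kd (vertical axis). Red points lie above the dashed line of equal length and dark points on or below it. The genes with the most H3K27me3 in control, Col13a1, Col26a1 and Col16a1, lie below the line.

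H3K27me3 was called in control alone in 3 bodies, against 9.33% of all, and in kd alone in 1, against 2.74%. Among body regions that do not reach the promoter, these counts were 12 and 7, against 8.48% and 3.67% of all. Of the 98 body regions of the control list, 45 (45.9%, all gene bodies: 37.5%) in 22 genes were touched by no kd region. The strongest were at Lamc3, 27.5 to 45.3 kb from the start (SICER p of 9.73e-187), at Lama5 and, 71.4 to 87.8 kb from the start, at Col26a1 (SICER p of 5.29e-78). That of Lama5 is the region already counted at its promoter. Of the 72 body regions of the kd list, 16 (22.2%, all gene bodies: 17.9%) were touched by no control region, and these were weaker. They were led by Col1a2 (SICER p of 2.27e-21), Col4a5 (SICER p of 2.39e-21) and Col28a1 (SICER p of 8.45e-21).

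Smarca4 in the bodies was called in control alone in 7 genes, against 8.04% of all, and in kd alone in 6, against 6.71%. It was concentrated in a few genes. Col18a1 held 22 body peaks in control and 25 in kd, Lamc1 15 and 7, and Col2a1 10 in each. Col9a2, a FACIT collagen of cartilage, held 8 and 1, whereas Lamc3 held 1 and 6. Among peaks without overlap in the other library, the strongest in control were at Col1a2, in an intron of Lamc1 (score 127, 15.9 kb from the start) and at Col9a2 (score 108, 12.8 kb from the start). That of Col1a2 is the peak already counted at its promoter, which reaches into the body. In kd the strongest lay in introns of Lama2 (score 178), Col4a3 (121) and Col19a1 (100), and 100%, 97% and 100% of their bases were repeat-masked.

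H3K27ac in the bodies was called in control alone in 6 genes, against 3.74% of all, and in kd alone in 7, against 16.1%. At Col18a1, 1 body region in control covered 1200 bp and 7 body regions in kd covered 14347 bp. The strongest of the latter without overlap in control lay 16.1 to 18.7 kb from the start in an intron (SICER p of 7.52e-25) and was 66.1% repeat-masked. The promoter region of Lama5, which reaches into the body, and an intronic region of Col4a3 with 100% repeat-masked bases (SICER p of 5.91e-18) were the other leading cases in kd. In control these were introns of Col26a1 (SICER p of 2.35e-18), Lamc1 (SICER p of 4.35e-16) and Lama3 (SICER p of 9.31e-13, 92.2% repeat-masked). In total, 78% of the H3K27ac regions of these bodies in control and 74.1% in kd were mostly repeat-masked, close to the 79.1% and 74.1% of the whole lists.

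H3K4me3 in the bodies was called in control alone in 5 genes, against 4.20% of all, and in kd alone in 9, against 5.80%. Of 29 control regions, 2 (6.90%, all gene bodies: 5.33%) had no overlap in kd, in introns of Col28a1 (SICER p of 1.21e-20) and Lama2 (SICER p of 8.81e-15), both 100% repeat-masked. Of 37 kd regions, 15 (40.5%, all gene bodies: 19.8%) had none in control, of which those at Col9a2 and Col1a1 reached from the promoter, and that at Col8a2, a collagen of the cornea, lay 13.8 to 15.0 kb from the start (SICER p of 2.26e-48). Ezh2 in the bodies was called in control alone in 6 genes, against 3.79% of all, and in kd alone in 5, against 3.51%. Of 17 Ezh2 peaks in these bodies in control, 10 (58.8%, all gene bodies: 42.8%) had no overlap in kd. Of 12 in kd, 3 (25.0%, all gene bodies: 38.3%) had none in control. The 3 strongest peaks in control without overlap, at Lamb3 (score 100), Col25a1 (91) and Col6a2 (81), had between 53.2% and 75.3% of their bases repeat-masked. The only 3 in kd, at Col25a1 (score 95), Col8a2 (93) and Lamb1 (29), had between 0% and 23.8%.

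Other genes of the same matrix pathways were counted from lists that were not part of the rule. Of 28 collagen modifying and secretion genes, such as prolyl hydroxylases and lysyl oxidases, 25 had H3K4me3 at the promoter in control and 27 in kd (all promoters: 56.6% and 60.4%), with Serpinh1 and Loxl2 in kd alone (all: 4.59%). H3K27me3 was at 18 and 20 of them (34.9% and 29.2%), H3K27ac at 3 and 8 (16.0% and 30.9%), Ezh2 at 6 and 13 (7.13% and 12.6%) and Smarca4 at 27 and 28 (62.5% and 63.5%). H3K27ac and Ezh2 were thus at more promoters in kd in this list as in all promoters. Serpinh1 encodes the collagen chaperone of the endoplasmic reticulum, and Loxl2 a collagen crosslinking enzyme. Of 10 basement membrane partners, 4 were bivalent in control and 7 in kd (all promoters: 21.2% and 21.6%), and Hspg2, the proteoglycan perlecan, carried H3K4me3 with H3K27ac in both. Fn1, the gene of fibronectin, carried H3K27ac in control alone (all: 1.83%). Of 13 collagen and laminin receptors, 8 had H3K4me3 in control and 10 in kd (56.6% and 60.4%). Itga7 had it in control alone (0.779%), and Itga2, Itga11 and Ddr1 in kd alone (4.59%). Itga6, Itgb1 and Dag1, which encode integrin chains and dystroglycan, carried H3K4me3 with H3K27ac in both libraries. Other integrin chains of the list, Itga1, Itga3, Itga7 and Itgb4, were bivalent in control. Of these, Itga7 carried H3K27me3 without H3K4me3 in kd, and the others stayed bivalent.

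Marker genes were read in the same way. Of 6 pluripotency genes, Pou5f1, Nanog, Sox2, Zfp42 and Tdgf1 carried H3K4me3 with H3K27ac and no H3K27me3 in both conditions, and Esrrb carried H3K27me3 at its annotated start. None of 6 primitive endoderm genes, which mark cells that secrete collagen IV and laminin, had H3K27ac in either library (all promoters: 16.0% and 30.9%). H3K27me3 was at 5 of these 6 genes in both (all: 26.8%). H3K4me3 was at 1 of them in control and at 3 in kd, with Foxa2 and Pdgfra in kd alone (all: 4.59%). None of 6 fibroblast genes had H3K27ac (all promoters: 16.0% in control and 30.9% in kd). H3K27me3 was at 5 of them in each library (34.9% and 29.2%), and H3K4me3 at 3 in control and 4 in kd (56.6% and 60.4%). By the methods, a company carried out the Smarca4 and H3K27me3 ChIP-seq and the authors that of the other antibodies, so that differences between these 2 groups of antibodies and between laboratories cannot be told apart. The lists hold regions and not RNA, and the Smarcb1 knockdown itself was not checked here.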

How the data were processed

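The series held 14 samples, 10 immunoprecipitated libraries and 4 inputs, and the deposited region list of each of the 10 libraries was used. The authors trimmed reads, aligned them to mm10 and filtered them with SAMtools 1.9 by the study's methods. The submitters' processing notes name Trim Galore and Bowtie2. Each library was called by itself, with MACS2 for the 2 proteins and with SICER for the histone marks. The values deposited by the authors are a MACS2 score (lowest 13 or 14 in a list) and a SICER p-value (highest 9.990e-06 for H3K27ac and 9.968e-11 for the other marks). Input is named as the background in the methods and IgG in the labels of the input samples, so that the background is uncertain. The methods give a nominal number of reads for the libraries sequenced by the authors, but the lists give no depth per library, which limits what an absent call can show.

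Only regions of the 19 autosomes and both sex chromosomes entered, and between 0 and 61 lines of a list lay elsewhere. Gene models were those of GENCODE M21, whereas the study's methods name a later release. The GRCm38.p6 reference was checked to hold all regions within its chromosome ends. A region was called mostly repeat-masked where at least 50% of its reference bases were in lower case. Overlaps were computed in Python 3.11.15 with numpy 2.4.6 and scipy 1.17.1 by a script tested on simulated regions. No test was made between conditions. The authors' differential calls were not used here.

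The genes, the lists and the rules were chosen with earlier results of these data known. Named are the collagen IV genes and a fixed set of common collagens and laminins, every promoter called in 1 condition alone, the 3 strongest promoter regions in control, the 3 strongest body regions without overlap in the other condition, and genes without any call. The values of 1 gene are not reported here. Alternatives were a stricter threshold (MACS2 score from 50 up, -log10 p from 20 up, or from 10 up in the case of H3K27ac), a promoter of 2 kb either side, all transcript starts, an overlap of at least 200 bp, lists of equal length, regions under 50% repeat-masked and leaving out Col4a3bp. Body regions that do not reach the promoter and percentiles within lists of equal length were added after seeing the data.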

Additional observations from a re-analysis of the deposited data

How the results depend on the processing

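Each count of genes called in 1 condition alone was recomputed under the alternatives, and a count was taken as moved when it differed by more than 1.5 times. With the stricter threshold, promoters in control alone were 5 for Smarca4, 6 for H3K27me3 and 0 for H3K4me3, and bodies in control alone were 6 for H3K27me3 and 1 for H3K27ac. Of the 12 promoters with H3K4me3 in kd alone, 6 were shared by the 11 found with it. With a promoter of 2 kb either side, H3K27ac in control alone was found at 1 promoter and H3K4me3 in control alone at 0, Ezh2 in kd alone in 0 bodies, H3K27me3 in kd alone in 5 bodies and H3K4me3 in control alone in 3 bodies. With all transcript starts, H3K27me3 in kd alone was found at 0 promoters and in 2 bodies, and H3K27ac in control alone at 1 promoter. With an overlap of at least 200 bp, Ezh2 in kd alone was found in 1 body and H3K27me3 in kd alone in 2. With lists of equal length, H3K4me3 was called in control alone at 2 promoters and in kd alone at 7, all 7 among the 12. With regions under 50% repeat-masked, Ezh2 in control alone was found in 1 body. With body regions that do not reach the promoter, counts for kd alone were 1 for Ezh2, 7 for H3K27me3 and 5 for H3K4me3, and for control alone 12 for H3K27me3 and 1 for H3K4me3. Leaving out Col4a3bp moved none of the 20 counts. Within 1.5 times of the reported value were 15 of 20 counts with the stricter threshold and with the wider promoter, 17 with all transcript starts, 18 with the larger overlap and with equal lists, and 19 with less repeat-masked regions. Counts in each library moved too, and those not given beside the results were as follows. H3K27ac in control was at 1 promoter, H3K4me3 with H3K27ac in control at 1, H3K4me3 alone in control at 2 and H3K27ac in 14 bodies in control, all with the stricter threshold. Without Col4a3bp, H3K27ac and the state with H3K4me3 were at 1 promoter each in control. Ezh2 in kd was in 4 bodies with the wider promoter, 6 with all transcript starts and 7 with the larger overlap. The cause of these differences was not tested, apart from the smaller number of regions in shorter lists. Leaving out a replicate was not possible with 1 library for each antibody and condition. No paired analysis was possible because each group holds 1 library and no test was made.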
